A study of Mus musculus with 2 samples.

Results

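Skeletal muscle holds a small set of proteins that keep ATP, protons and calcium steady during contraction, and 10 of their genes were followed in mouse gastrocnemius, the large calf muscle. They were the creatine kinases Ckm, Ckb and Ckmt2, the creatine transporter Slc6a8, the creatine-making enzyme Gamt, the adenylate kinase Ak1, the AMP deaminases Ampd1 and Ampd3, the calcium buffer Pvalb and the carbonic anhydrase Car3. The genes were chosen by name, for their role in these buffering systems, with earlier results of these data known. All 10 were found among the 34745 gene identifiers in the count table. All 10 also had a mean of at least 1 CPM (reads scaled to the library total) over both libraries, as did 12832 genes in all.

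The study compared gastrocnemius of 8-week-old C57BL/6 mice of the genotypes Cry2flox/flox (library Cry2flox) and Cry2scko, with 1 RNA-seq library for each. Cry2 encodes a cryptochrome, a repressor of the circadian clock. The labels do not spell out "scko", the cells in which Cry2 was removed and the Cre driver are not given in the sources used here, and neither is whether a library came from 1 animal or from a pool. As a check of the labels, the count of Cry2 was 676 in the Cry2flox library and 133 in the Cry2scko library, which is 4.46-fold lower after scaling. With 1 library per genotype there is no replicate check on any difference, so no p-value is given. Each ratio is Cry2scko over Cry2flox after TMM scaling of the counts, with an exact 95% interval that covers counting error only. The interval takes each read as a separate draw. Reads copied by PCR and carrying no molecular identifier cannot be counted as separate molecules, so it may be too narrow. A gene was called different when the ratio was at least 2-fold and its interval excluded 1.

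The libraries held 18909433 counted reads in Cry2flox and 16423884 in Cry2scko, and mitochondrially encoded genes took 23.8% and 24.6% of them. The defining genes of fast fibres were abundant in both, at 12.8% and 12.4% of all reads for 9 markers, among them the fast myosin heavy chain Myh4 at 7751 and 7113 FPKM. All 9 markers of slow fibres were above a ratio of 1 and 6 were called higher. The summed level of the 9 was 308 FPKM in Cry2flox and 627 FPKM in Cry2scko. Myl3, which was not among the 6 called, was at 73.9 and 135 FPKM. Of 9 adipocyte markers, 7 reached a mean of 1 CPM, 6 of those 7 were below a ratio of 1 and 2 were called lower. Markers of B lymphocytes were called higher in 4 of 4, with 10.8 and 31.7 FPKM in sum. No marker of erythrocytes, smooth muscle, Schwann cells, endothelium or macrophages was called different. Of 6 measured genes of the denervation response 1, Runx1, was called higher, but 4 were below a ratio of 1. The median log2 ratio of these 6 was -0.32. In RNA from whole muscle, fewer cells of a type and less RNA per cell cannot be told apart.

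Phosphocreatine is the first reserve from which a contracting fibre rebuilds ATP. Creatine is made from arginine and glycine in 2 steps, of which GAMT carries out the last, and it enters fibres through the transporter SLC6A8. Cytosolic muscle creatine kinase (CKM) passes phosphate between creatine and ATP at the myofibrils, mitochondrial CKMT2 does so at the inner membrane, and the brain type CKB is the main form in many other tissues. When ATP use outruns supply, adenylate kinase turns pairs of ADP into ATP and AMP, and AMP deaminase removes the AMP as IMP with release of ammonia. Parvalbumin binds calcium between contractions in fast fibres of rodents. Carbonic anhydrase 3 is an abundant cytosolic protein of slow fibres and fat cells that interconverts carbon dioxide and bicarbonate with low activity.

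None of the 10 genes was called different between the genotypes, where 4.88% of all 12832 genes were called. Their log2 ratios had a median of -0.01 and ran from -0.71 for Ckb to 0.11 for Ampd3, beside a median of -0.00 and quartiles of -0.17 and 0.18 over all genes. The 10 genes together took 2.95% of reads in Cry2flox and 2.97% in Cry2scko. Ckb, Car3 and Slc6a8 had the lowest ratios and lay well below the lower quartile of all genes. Gamt lay at that quartile with -0.17, and the other 6 genes lay between the quartiles. Ckb was called lower under a looser threshold of 1.5-fold, the only 1 of the 10, where 10.9% of all genes were called and 4.35% were called lower. The counting interval excluded a ratio of 1 for 7 of the 10 genes, 3 above it and 4 below, and for 33.5% of all genes. Such a count depends on the reads behind each gene as well as on its ratio. Among the 82 genes of at least 1000 CPM, 90.2% had an interval that excluded 1, and 5 of the 10 genes were in that class. Ckb and Slc6a8 were not in that class, and their intervals also excluded 1.

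**Figure D1:**
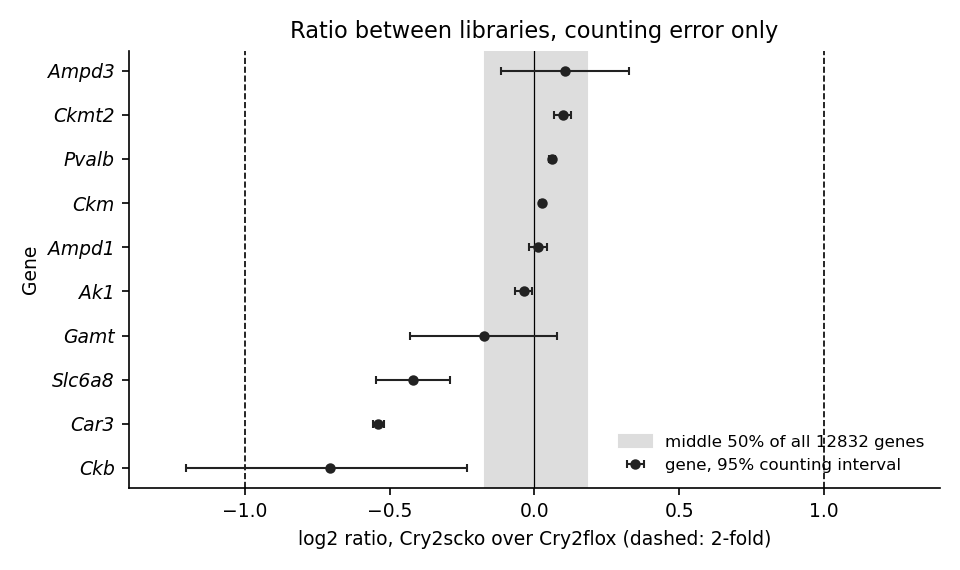
Log2 ratio of each of the 10 genes, Cry2scko over Cry2flox, with its 95% counting interval as a bar. The grey band spans the quartiles of all 12832 genes (-0.17 to 0.18) and the dashed lines mark 2-fold; Ckb (-0.71), Car3 (-0.54) and Slc6a8 (-0.42) lie left of the band.

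The 10 genes covered a wide range of levels, read here as deposited FPKM, which divides reads by gene length and by depth. The order in Cry2flox was Ckm, Pvalb, Car3, Ckmt2, Ampd1, Ak1, Slc6a8, Gamt, Ckb and Ampd3. Cry2scko had the same order but for Ckmt2 above Car3 and Ampd3 above Ckb. Neighbours in this order were apart beyond counting error within a library, with 2 exceptions. Slc6a8 and Gamt were not apart in Cry2scko, at 5.17 FPKM (4.83 to 5.53) and 5.15 FPKM (4.51 to 5.86), and the intervals of Ckb and Ampd3 overlapped there too. The order also rests on the gene lengths the authors used. With merged exon lengths of the GENCODE M21 annotation, Pvalb stood above Ckm, at 7306 against 5419 FPKM in Cry2flox and 7732 against 5592 FPKM in Cry2scko, and Ak1 stood above Ampd1. With these merged lengths Ampd3 stood above Ckb in both libraries, at 3.25 against 1.94 FPKM in Cry2flox and 3.55 against 1.20 FPKM in Cry2scko. Their change of order between libraries was thus seen with deposited lengths and not with merged ones. Lengths do not enter the ratios between libraries.

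**Figure D2:**
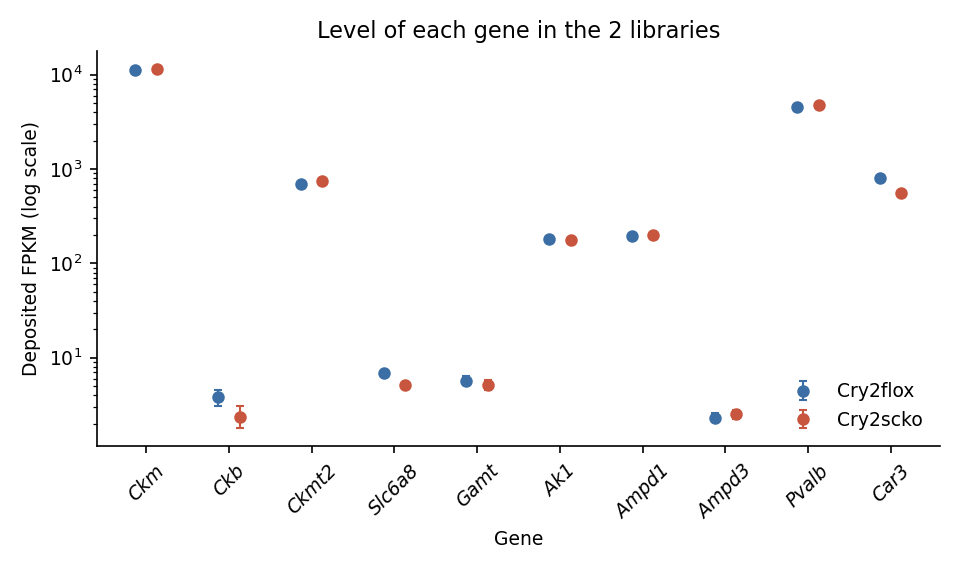
Deposited FPKM of the 10 genes on a log axis in Cry2flox (blue) and Cry2scko (red), with 95% counting intervals as bars where they are wider than the point. Ckm and Pvalb stand highest and Ckb and Ampd3 lowest in both libraries, and the blue point is clearly above the red for Car3, Slc6a8 and Ckb.

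The genes that make and import creatine had low deposited FPKM in both libraries. By mean CPM, Slc6a8 was 1740th of all genes, and with merged exon lengths it was at 12.9 and 9.79 FPKM. Gamt (ENSMUSG00000020150, chr10:80258151-80261012 on the minus strand, GRCm38), which methylates guanidinoacetate to creatine, had 296 reads in Cry2flox and 231 in Cry2scko, or 15.8 and 14.0 CPM, and 5.73 and 5.15 FPKM. Its log2 ratio was -0.17 (-0.43 to 0.08), so no difference was detectable at this depth. Gatm, which carries out the first step of creatine synthesis, had 229 and 213 reads and a log2 ratio of 0.08 (-0.20 to 0.35). Slc6a8 (ENSMUSG00000019558, chrX:73673150-73682502 on the plus strand), the transporter that brings creatine into the fibre, had 1273 reads in Cry2flox and 838 in Cry2scko. That was 67.8 and 50.7 CPM, or 6.82 and 5.17 FPKM. Slc6a8 was thus 1.34-fold lower in Cry2scko, with a log2 ratio of -0.42 (-0.55 to -0.29), and 8.73% of all genes had a lower ratio. The interval excluded both 1 and 2-fold.

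The creatine kinases differed from each other far more than between the genotypes. Ckm (ENSMUSG00000030399, chr7:19404776-19422841, plus strand) was the most abundant of the 10 genes by reads, 14th of all genes by mean CPM, with 298512 reads in Cry2flox and 267532 in Cry2scko, or 15897 and 16176 CPM, and 11156 and 11512 FPKM. Its log2 ratio was 0.03 (0.02 to 0.03), a 1.02-fold difference. The interval excluded 1 for counting error only, and under the alternative settings given below the log2 ratio ran from 0.02 to 0.09. Ckmt2 (ENSMUSG00000021622, chr13:91853387-91876885, minus strand), the mitochondrial form of muscle, had 19412 and 18285 reads, or 1034 and 1106 CPM, and 691 and 749 FPKM. It was 1.07-fold higher in Cry2scko, a log2 ratio of 0.10 (0.07 to 0.13), and 64.9% of all genes had a lower ratio. Ckb (ENSMUSG00000001270, chr12:111669361-111672338, minus strand) had only 106 and 57 reads, or 5.65 and 3.45 CPM, and 3.79 and 2.35 FPKM.

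Ckb had the lowest ratio of the 10 genes and the widest interval. It was 1.63-fold lower in Cry2scko, a log2 ratio of -0.71 with an interval from -1.20 to -0.23, which excluded 1 but not 2-fold. Only 3.50% of all genes had a lower ratio. Ckb reads are uncertain in 1 further respect: the gene Gm12892 matches its transcript at 96.8% identity over 1149 bases, and how reads that match both were assigned is not given in the sources used here. Gm12892 itself is not among the counted gene identifiers. The other mitochondrial form, Ckmt1, had 2 reads in Cry2flox and 0 in Cry2scko, and a count of 0 allows up to 0.181 CPM there.

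Within the family, Ckm made up 94.1% of the summed creatine kinase FPKM in Cry2flox and 93.9% in Cry2scko. Ckmt2 made up 5.83% and 6.11%, and Ckb 0.0320% and 0.0191%. The balance of Ckm and Ckmt2 was therefore close to the same in the 2 libraries, with Ckm over Ckmt2 at 16.1 and 15.4. Ckm over Ckb differed more, at 2942 and 4903. With merged exon lengths the Ckm share was 88.7% and 88.2%, so its size but not its likeness between libraries depends on the length used.

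The stretches just upstream of the creatine kinase starts show how these unequally expressed genes differ near their starts. Each line gives the 60 bases before a RefSeq transcript start (GRCm38.p6), 5′ to 3′ on the gene's strand, for Ckm at chr7:19411034-19411093, Ckb at chr12:111672339-111672398 and Ckmt2 at chr13:91876886-91876945. The Ckm start used lies inside the GENCODE M21 span of Ckm given above, while the Ckb and Ckmt2 starts are at the 5′ ends of theirs. Capitals mark TATANA, the core of a TATA box, found on either strand, where overlapping matches run together, and the E-box form CANNTG.
Ckm: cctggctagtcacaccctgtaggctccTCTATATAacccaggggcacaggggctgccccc
Ckb: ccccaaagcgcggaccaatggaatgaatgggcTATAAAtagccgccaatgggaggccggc
Ckmt2: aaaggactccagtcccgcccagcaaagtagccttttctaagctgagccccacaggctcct
The abundant Ckm and the scarce Ckb both held TATANA here, and the Ckmt2 stretch held neither motif. In the full windows, from 250 bases before to 50 after a start, TATANA was in 4 of 13 windows of the 7 genes with an entry (Ak1, Ckb, Ckm and Pvalb) and in 24.7% of all 32851 windows. CANNTG, the loose E-box that myogenic factors bind, was in 10 of 13 and in 72.3% of all. CACGTG, the E-box form that clock activators bind and that CRY2 acts through, was in 1 of 13 windows and in 7.15% of all. That match was before a start of Ampd3, and the 30 bases around it, chr7:110772514-110772543 on the plus strand, are shown with the motif in capitals.
Ampd3: ccagcagtgggtCACGTGtcagctctgtaa
These are matches of letters in a window, and no binding was measured. Slc6a8, Ampd1 and Car3 had no entry.

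The adenylate genes were close to equal in the 2 libraries. Ak1 (ENSMUSG00000026817, chr2:32621758-32635058, plus strand), the adenylate kinase of muscle cytosol, had 20738 reads in Cry2flox and 17793 in Cry2scko, or 1104 and 1076 CPM, and 180 and 178 FPKM. Its log2 ratio was -0.04 (-0.07 to -0.01), and the sign turned to 0.03 when libraries were scaled to equal fast fibre marker reads. Ampd1 (ENSMUSG00000070385, chr3:103074014-103099720, plus strand), the AMP deaminase of skeletal muscle, had 17411 and 15475 reads, or 927 and 936 CPM, and 194 and 199 FPKM. Its log2 ratio was 0.01 (-0.02 to 0.04), the tightest interval around 1 of the 3 genes whose interval held 1. Ampd3 (ENSMUSG00000005686, chr7:110768206-110812405, plus strand), the form best known from erythrocytes, had 346 and 328 reads, or 18.4 and 19.8 CPM, and 2.32 and 2.53 FPKM. Its log2 ratio of 0.11 (-0.12 to 0.33) was the highest of the 10 and was not apart from 1 at this depth.

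The Ampd3 count has a limit of its own, since its exons share 195 bases with Rnf141 on the opposite strand (429 and 315 reads) and whether strand was used in counting is not given in the sources used here. Erythrocyte markers, which bear on Ampd3, had a median log2 ratio of 0.13 with 0 of 5 called and a summed level of 34.3 and 42.1 FPKM, and their part in the Ampd3 value was not tested. Ampd1 made up 98.5% and 98.4% of the summed AMP deaminase FPKM, and Ampd3 made up 1.18% and 1.25%. Ak1 made up 80.3% and 80.7% of the adenylate kinase FPKM, followed by the mitochondrial matrix form Ak3 with 10.3% and 9.63%.

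Pvalb was high and nearly equal in both libraries. Parvalbumin, the calcium buffer it encodes (ENSMUSG00000005716, chr15:78191114-78206400, minus strand), had 143820 reads in Cry2flox and 132199 in Cry2scko, or 7659 and 7993 CPM, and 4508 and 4771 FPKM. The log2 ratio was 0.06 (0.05 to 0.07), 1.04-fold, and the gene was 19th of all genes by mean CPM. The fast fibre marker list, to whose cells Pvalb belongs, had a median log2 ratio of -0.04 with 0 of 9 called. The summed level of that list was 42532 and 42218 FPKM.

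Car3 showed the largest difference in scaled reads (CPM) of the 10 genes. Car3 (ENSMUSG00000027559, chr3:14863512-14872523, plus strand) had 56583 reads in Cry2flox and 34276 in Cry2scko, or 3013 and 2072 CPM, and 804 and 561 FPKM. It was 1.45-fold lower in Cry2scko, a log2 ratio of -0.54 with a narrow interval from -0.56 to -0.52, which excluded both 1 and 2-fold. Of all 12832 genes, 5.91% had a lower ratio. Among the 82 genes of at least 1000 CPM, whose quartiles were -0.13 and 0.05, only Actc1 (-1.05) and Mylk4 (-0.82) had a lower ratio than Car3. The lower level of Car3 also moved it from above Ckmt2 to below it in the order of deposited FPKM, though not with principal transcript lengths, where Car3 was above Ckmt2 in both libraries.

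**Figure D3:**
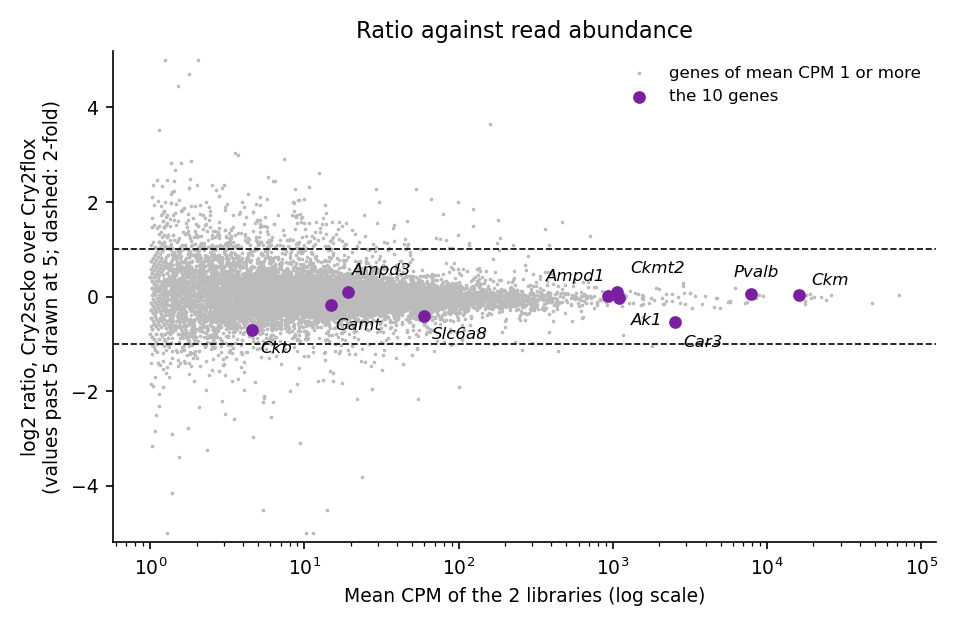
Log2 ratio, Cry2scko over Cry2flox, against mean CPM on a log axis for all 12832 genes (grey) and the 10 genes (purple), with dashed lines at 2-fold. At the abundance of Car3 (-0.54) the grey points lie close to 0, while at that of Ckb (-0.71) they spread past both lines.

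Car3 is known from slow fibres and from fat cells, and the markers of these cells differed in opposite directions. Slow fibre markers were higher in Cry2scko, with a median log2 ratio of 1.10. The 7 adipocyte markers of at least 1 CPM had a median of -0.74. Adipoq, the fat cell hormone adiponectin, had 83 and 30 reads, a log2 ratio of -1.27 (-1.94 to -0.67). Cfd, the complement factor adipsin, had 417 and 220 reads, a log2 ratio of -0.74 (-0.98 to -0.50). Plin4, a lipid droplet protein that muscle fibres also express, was at 25.1 and 27.0 FPKM and held a large part of the list's summed level of 55.8 and 45.1 FPKM. None of the 9 adipocyte markers was at 0 in either library. Their part in the Car3 value was not tested.

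Car3 dominated its family in both libraries, at 97.5% and 96.4% of the summed carbonic anhydrase FPKM of 825 and 581. Of 16 family genes 7 reached 1 CPM, none was called, and Car3 was the 1 of those 7 whose interval excluded 1. Car14, a membrane-bound form of muscle and the next in level, had 555 and 464 reads and a log2 ratio of -0.07 (-0.26 to 0.11). The ratio of Car3 to Car14 by FPKM was 96.8 in Cry2flox and 70.1 in Cry2scko. Car8 had a log2 ratio of -0.10 and Car11 of -0.17, each with an interval that held 1. Car2, which lies 13750 bases from Car3 on the same strand, had 119 and 109 reads and a log2 ratio of 0.06 (-0.33 to 0.44). Over the 32 genes of at least 1 CPM within 50 kb of any of the 10 genes, none was called different, beside 4.88% of all genes. Their median log2 ratio was 0.03.

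The wider pathways were described through 8 lists of related genes, which held 74 matched genes besides the 10, 56 of them at 1 CPM or more. Of these 56, 1 was called higher and none lower, beside 4.88% of all genes, and their median log2 ratio was -0.04. In the purine nucleotide cycle and AMP breakdown list, which runs from AMP to IMP and back, 15 genes were measured and none was called. No interval in that list excluded 1. Adssl1, the muscle enzyme that starts the return from IMP to AMP, had 12744 and 11267 reads, 262 and 267 FPKM, and a log2 ratio of 0.01 (-0.03 to 0.04). Adk, which rebuilds AMP from adenosine, was at -0.10 (-0.25 to 0.04) and Hprt, which salvages IMP, at 0.21 (-0.01 to 0.42). The other adenylate kinases were near 1, with Ak3 at -0.14 (-0.25 to -0.03) and Ak6 at 0.07 (-0.07 to 0.20).

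The subunits of AMPK, the kinase that senses AMP, had the lowest median of the 8 lists, -0.22, with 0 of 7 called. Prkag3, the regulatory subunit of fast muscle, had 4415 reads in Cry2flox and 3181 in Cry2scko, 53.4 and 44.3 FPKM, a log2 ratio of -0.29 (-0.36 to -0.22). Prkaa2, the main catalytic subunit of muscle, had 5982 and 4520 reads, 39.7 and 34.5 FPKM, a log2 ratio of -0.22 (-0.28 to -0.17). Prkab2 was at -0.10 (-0.17 to -0.03), while Prkag1 was above 1 with 0.17 (0.02 to 0.33). The largest difference in the list was 1.24-fold, for Prkag2.

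The list around proton handling held the lactate transporters, bicarbonate exchangers and the carnosine genes, and 0 of 12 were called. Bsg, the chaperone that lactate transporters need to reach the membrane, was highest in level and in ratio, with 6308 and 7689 reads, 87.1 and 122 FPKM and a log2 ratio of 0.47 (0.42 to 0.52). The lactate transporters themselves were below 1, with Slc16a3, the form of glycolytic fibres, at -0.19 (-0.26 to -0.13) and Slc16a1 at -0.13 (-0.28 to 0.02). Slc6a6, the taurine transporter, was at -0.30 (-0.40 to -0.21) with 2077 and 1483 reads. Carns1, which makes the histidine dipeptide carnosine, an intracellular proton buffer, had 476 and 538 reads and a log2 ratio of 0.36 (0.18 to 0.54).

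The parvalbumin relative Ocm and the buffer Calb2 had 0 reads in both libraries, which allows up to 0.160 and 0.181 CPM, and Calb1 had 1 and 0.

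Ckmt2 works beside the carriers that move ATP out of mitochondria, and this list of 9 genes held no call and had a median of -0.04. Slc25a4, the ADP/ATP carrier of muscle, had 52838 and 48874 reads, 1030 and 1097 FPKM, a log2 ratio of 0.07 (0.05 to 0.09). The outer membrane channel Vdac1 was at 0.06 (0.03 to 0.08), while 7 of the 9 genes were below a ratio of 1. The ATP synthase subunits Atp5b and Atp5a1 were at -0.09 (-0.11 to -0.07) and -0.04 (-0.07 to -0.02). Ckmt2 relative to Slc25a4 was 0.671 in Cry2flox and 0.683 in Cry2scko by FPKM, so the level of the kinase relative to the carrier was nearly the same in both.

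**Figure D4:**
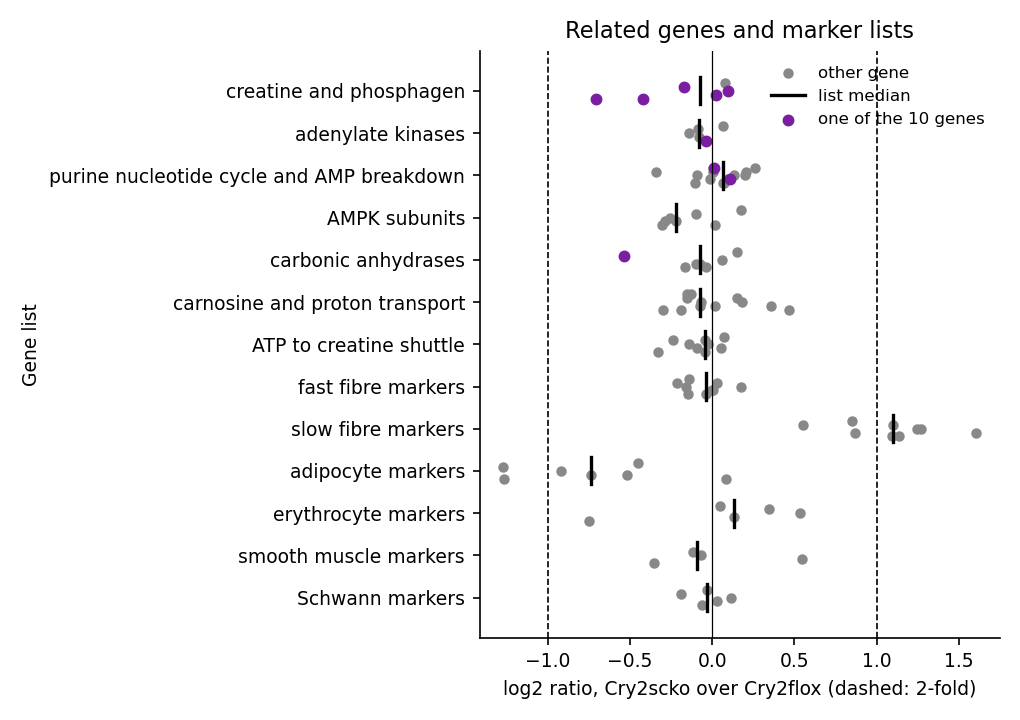
Log2 ratios, Cry2scko over Cry2flox, of the genes of at least 1 CPM in 7 of the 8 related lists and in 6 marker lists, with list medians as black bars, the 10 genes in purple and dashed lines at 2-fold. The list of calcium buffers, which holds the 1 related gene called higher, is not drawn. Slow fibre and adipocyte medians stand at 1.10 and -0.74.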

How the data were processed

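RNA-seq libraries were made from total RNA of gastrocnemius, 1 for each genotype. The deposited table holds raw read counts per Ensembl gene, and the authors also deposited FPKM per gene, per the file headers. CASAVA, HISAT2 2.0.4, StringTie 1.3.0 and the build GRCm38 are named in the submitters' processing notes. The counter, annotation release and strand setting are not given in the sources used here.

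Counts were scaled with TMM (edgeR 4.0.16, R 4.3.3; factors 0.993 and 1.01), 0.5 reads were added for the log2 ratio, and exact (Clopper-Pearson) 95% intervals were computed on the split of reads (Python 3.11.15, scipy 1.17.1). Genes of mean CPM 1 or more were tested against the 2-fold rule. No gene model was fitted across genes and no p-value was computed. Symbols and coordinates came from GENCODE M21 (GRCm38), and near copies from BLAST 2.17.0 (at least 95% identity over 100 bases). A zero count was read as allowing up to 3 reads. Scripts were tested on simulated data.

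The 10 genes and all lists were chosen with earlier results of these data known. The text names all 10, Cry2, genes of a related list past the 2-fold rule or else up to 4 with the highest mean FPKM, and up to 3 markers per list. Car2, Carns1, Ckmt1, Ocm, Calb1 and Calb2 were named after their values were seen, as were Actc1 and Mylk4. The symbol Pnp of the purine list was not matched. Some genes of the related lists are counted but not reported here by name. No genes were named for likeness, since with 2 libraries a pattern is 1 ratio.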

Additional observations from a re-analysis of the deposited data

How the results depend on the processing

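The results were recomputed under 9 alternatives: total counts, size factors of DESeq2 1.42.0, totals that leave out mitochondrial transcripts and the 20 most abundant genes, equal fast fibre marker reads, deposited FPKM with 0.1 added, 5 reads added, no minimum CPM, a minimum of 5 CPM, and a 1.5-fold threshold. The last 3 change which genes are tested or called but not a ratio, and Ckb, at a mean of 4.55 CPM, was not tested at the minimum of 5 CPM. Under the other 6 the sign was kept for 9 of 10 genes, and Ak1 changed from -0.04 to 0.03 with equal fast fibre reads. That setting moved the median of the 10 from -0.0124 to 0.0528. The largest shift of any of the 10 ratios was 0.07. None was called at 2-fold, and 1, Ckb, was called at 1.5-fold. Over all genes, 626 calls became 1185 with no minimum CPM, 251 at a minimum of 5 CPM, 427 with deposited FPKM, and 1400 at 1.5-fold, where 60.1% of calls were higher against 69.0%. Gene lengths, added after seeing the data, moved the shares: Ckm from 94.1% and 93.9% to 88.7% and 88.2% (merged exons) or 89.2% and 88.8% (principal transcripts), and Ak1 from 80.3% and 80.7% to 88.6% and 88.8% or 85.4% and 85.4%. No paired analysis was possible because each genotype has 1 library.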

Other observations

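Dividing counts by deposited FPKM gave the same length in both libraries within 0.1% for all 16284 genes with reads in both. For 8019 of 12145 genes with more than 20 reads in each library (66.0%), that length equalled, within 1 base, the sum of all distinct annotated exons, with exons that overlap between transcripts counted repeatedly, and for 968 (7.97%) it equalled the merged exon length. The length was 2.35 times the merged length for Ak1, 1.89 times for Slc6a8 and Gamt, 1.62 times for Pvalb and 0.486 times for Ckm. Deposited FPKM understates Ak1, Slc6a8, Gamt and Pvalb beside Ckm, relative to merged exons, in both libraries alike.

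Car3 differed from most abundant muscle genes, and the other genes of at least 1000 CPM that were furthest below 1 were Actc1 (cardiac actin, -1.05), Mylk4 (a myosin light chain kinase, -0.82) and Tcap (the titin cap, -0.42). These were named after their values were seen.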
